A study of Mus musculus with 6 samples.

Results

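The rostral signalling centre of the telencephalon and the feedback loop that its Fgf signals switch on were followed in 10 genes, taken by name from the 55471 genes counted in mouse rostral telencephalic primordium. The genes were the secreted ligands Fgf8, Fgf15, Fgf17 and Fgf18, the inhibitors Spry1, Spry2 and Spry4, the transcription factors Etv4 and Etv5, and the phosphatase Dusp6. RNA-seq covered 3 samples of each genotype, control and Rx-Dicer, at E11.5. Control embryos are labelled WT, and the dissection protocol gives them as Dicer F/F, homozygous for a floxed Dicer1 allele (Dicer1tm1Bdh) without Cre. Rx-Dicer embryos carried the same floxed alleles together with Rx3-Cre, in which regulatory sequences of Rax drive the recombinase. The floxed line was kept on C57BL/6 and the Cre line on CD1, so embryos had mixed backgrounds. According to the study, recombination by this driver was regional, strong in the rostral and ventral telencephalon and weaker in the dorsal neocortex. Nothing in the labels tells how many embryos went into a library, and p-values measure the spread between these samples only.

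At the rostral midline of the forebrain a small group of cells secretes Fgf8, Fgf17 and Fgf18, and this source sets the rostral identity and growth of the tissue around it. Cells that receive the ligand through Fgf receptors activate the Ras and ERK kinase cascade, and they answer by transcribing Etv4 and Etv5, which carry the signal to target genes, and Sprouty genes and Dusp6, which damp it. The same loop runs at the border of midbrain and hindbrain, and its target genes are widely used as readouts of Fgf signalling.

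The 6 libraries held 34471501 to 48373468 counts on genes. Normalised counts below are counts divided by a size factor for library depth, and values within a genotype follow the replicate numbers. Dicer1, the floxed gene, had 6355, 7070 and 6270 normalised counts in controls, against 4777, 7002 and 4644 in Rx-Dicer, a log2 fold change of -0.26 ± 0.17 (SE, DESeq2 adjusted p = 0.567). The library labelled Rx-Dicer 2 thus lay within the control range, and without it the difference was -0.47 with a DESeq2 adjusted p of 8.8e-04. That fit leaves out the Rx-Dicer library with the most Dicer1, which widens the difference by construction. Its p is therefore no support for a loss of Dicer1. Counts per gene also take in reads from exons outside the floxed segment.

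The tissue label was checked with lists of marker genes. All 8 telencephalon markers, among them Emx2 and Lhx2, reached at least 1 CPM, counts scaled to 1000000 per library, in every library, and their summed level was 961 to 1340 CPM in controls and 1030 to 1120 CPM in Rx-Dicer. Summed levels overlapped between genotypes for eye (12.2 to 23.7 against 5.32 to 21.3 CPM), surface and olfactory ectoderm (28.2 to 86.4 against 34.7 to 68.2 CPM), head mesenchyme (405 to 953 against 683 to 830 CPM) and blood vessels and blood (180 to 281 against 223 to 240 CPM). They did not overlap for the 7 hypothalamus markers, at 2.40 to 5.54 CPM in controls and 26.4 to 48.9 CPM in Rx-Dicer. Most of that sum in Rx-Dicer was Nkx2-1, which the ventral telencephalon makes as well, at 0.087, 1.2 and 4.57 CPM in controls against 16.4, 46.2 and 30.0 CPM in Rx-Dicer. The other 6 markers summed to 2.64, 1.2 and 0.964 CPM against 9.96, 2.72 and 11.1 CPM. Of the 7, Nkx2-1, Otp, Sim1 and Bsx did not overlap between genotypes and Rax, Nkx2-4 and Six6 did. The non-overlapping markers were higher in Rx-Dicer, a pattern found in 8.55% of all genes tested. Among all 49 markers, the DESeq2 test called Otp and Bsx (hypothalamus), Csf1r (blood list) and Six3 (telencephalon), each higher in Rx-Dicer. Over all genes tested, 1.75% were called higher. Overlapping sums do not show the values of single markers. Neurog2 had 6177, 6080 and 2903 normalised counts in controls, against 3323, 1485 and 2752 in Rx-Dicer (DESeq2 adjusted p = 0.3085). Trp63 had 318, 6.11 and 144 against 24.9, 4.08 and 1.90 (DESeq2 adjusted p = 0.161). Both overlapped between genotypes, and neither was called. In these lists Tbr1, Neurog2, Krt5, Trp63 and Pmel (lower) and Six3, Lum, Ptprc and Csf1r (higher) had an unadjusted DESeq2 p under 0.05. Over all genes with a DESeq2 p, 7.52% did. The part that the hypothalamic RNA had in the results below was not tested.

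Fgf8 RNA was close to absent in 2 of the 3 controls and present in every other library. Fgf8 (ENSMUSG00000025219, GRCm38 chromosome 19, 45736798 to 45742915, minus strand), the ligand that defines the rostral centre, had 838, 3.06 and 1.88 normalised counts in controls. In Rx-Dicer it had 993, 621 and 662. Control 1 lay inside the Rx-Dicer range, whereas controls 2 and 3 lay far below every other library. Their raw totals were 3 and 2 counts, against 686 in control 1. In CPM, control 1 was above control 2 by a ratio of 282 (exact 95% interval 96.2 to 1373) and above control 3 by a ratio of 444 (122 to 3673), intervals that cover counting error only. Both sequencing files of each sample showed this, with 338 and 348 counts in control 1, 0 and 3 in control 2, and 1 and 1 in control 3.

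The difference between genotypes in Fgf8 was not resolved by 3 samples each. Its log2 fold change, Rx-Dicer minus control, was 1.43 ± 1.99 (SE), with a 95% interval of -2.46 to 5.33. DESeq2 gave it no p-value because 1 sample lay too far from its group by Cook's distance. With that rule off, an alternative chosen after the data had been seen, the DESeq2 adjusted p was 0.885. An exact two-sided permutation test on log2 values gave p = 0.3, where 0.1 is the smallest p that 3 against 3 allows. Without control 1 the log2 fold change was 8.28 with a DESeq2 adjusted p of 7.05e-29, and it rested on the 3 and 2 counts of the remaining controls. In bulk tissue, fewer cells of a type and less RNA per cell cannot be told apart.

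Fgf17 (ENSMUSG00000022101, chromosome 14, 70636203 to 70642268, minus strand), a ligand of the Fgf8 subfamily transcribed around the same centre, had 4720, 256 and 358 normalised counts in controls. In Rx-Dicer it had 4558, 2547 and 2612. Control 1 was the highest of all libraries and controls 2 and 3 the lowest, so the genotypes overlapped. Unlike Fgf8, Fgf17 kept a clear level in the low controls, at raw totals of 251 and 381 counts. Between genotypes it had a log2 fold change of 0.87 ± 1.22 (SE, 95% interval -1.53 to 3.26), again without a p-value by Cook's rule. The DESeq2 adjusted p was 0.888 with the rule off, and the exact two-sided permutation test gave p = 0.4. Without control 1 it was 3.40 (DESeq2 adjusted p = 4.42e-28).

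Fgf18 (ENSMUSG00000057967, chromosome 11, 33117430 to 33147400, minus strand), the third ligand of this subfamily, had 198, 2.04 and 22.5 normalised counts in controls, compared with 295, 160 and 253 in Rx-Dicer. Controls 2 and 3 were again the lowest libraries, and control 1 fell between Rx-Dicer values. In control 2 its raw total was 2 counts, and control 1 exceeded it by a ratio of 100.0 in CPM (exact 95% interval 27.3 to 833). For Fgf18 the log2 fold change was 1.67 ± 1.42 (SE, 95% interval -1.12 to 4.46, DESeq2 adjusted p = 0.740). Without control 1 it was 4.26 (DESeq2 adjusted p = 0.00292).

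Where Fgf8 was detected above a few counts, the ligands of the subfamily stood in similar proportion to each other. Per kilobase of exon, Fgf17 was 4.50 times Fgf8 in control 1 and 3.67, 3.28 and 3.16 times Fgf8 in Rx-Dicer. Fgf18 was 0.269 times Fgf8 in control 1 and 0.338, 0.293 and 0.435 times in Rx-Dicer. The inhibitor Spry1 was 2.504 times Fgf8 in control 1 and 1.715, 1.927 and 2.089 times in Rx-Dicer. Etv5 was 2.536 times Fgf8 in control 1 and 1.419, 1.773 and 1.638 times in Rx-Dicer. Fgf15 spread more widely, at 0.7516 times in control 1 and 0.666, 2.406 and 1.012 times in Rx-Dicer. A similar proportion to Fgf8 was thus not particular to the ligands of the subfamily. No ratio was taken in controls 2 and 3.

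The markers of the midbrain-hindbrain organiser, the other place where Fgf8, Fgf17 and Fgf18 are made together, had their lowest summed level in the same controls. It was 13.4, 2.18 and 2.69 CPM in controls and 23.9, 11.9 and 11.3 CPM in Rx-Dicer. Of the 7 markers 0 were called by DESeq2 (2, En1 and Wnt1, at an unadjusted p under 0.05, and 0 by edgeR at either level). Without control 1, the highest control for each, DESeq2 called Pax2, Pax5 and Pax8 higher. Pax5 was the most abundant of them, with 357, 77.4 and 74.2 normalised counts in controls, against 637, 372 and 243 in Rx-Dicer. Pax2 had 67.2, 1.02 and 7.52 against 145, 79.5 and 87.5, and Pax8 was at 0 in controls 2 and 3. En1, which defines that region, had 62.3, 4.07 and 16.0 normalised counts in controls, compared with 6.00, 0 and 11.4 in Rx-Dicer, and En2 and Gbx2 were under 1 CPM in every library. Rax, whose regulatory sequences drive the Cre and which marks the hypothalamus, had 45.2, 1.02 and 0.94 normalised counts in controls, against 39.5, 20.4 and 27.6 in Rx-Dicer. The part of neighbouring tissue in the ligand levels was not tested.

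Fgf15 (ENSMUSG00000031073, chromosome 7, 144896531 to 144900953, plus strand), a ligand transcribed more widely in forebrain progenitors, did not share the pattern of the others. It had 1427, 1581 and 2181 normalised counts in controls, against 1498, 3387 and 1517 in Rx-Dicer. The highest value was in the library labelled Rx-Dicer 2 and the next in control 3, and the genotypes overlapped. The same pair of libraries was highest for the ventral telencephalic markers Dlx2 and Gsx2. Dlx2 had 1048, 1336 and 3044 normalised counts in controls, compared with 771, 4079 and 717 in Rx-Dicer, and its part in the Fgf15 values was not tested. The log2 fold change of Fgf15 was 0.30 ± 0.44 (SE, 95% interval -0.55 to 1.16, DESeq2 adjusted p = 0.893), and it turned to -0.19 without the library labelled Rx-Dicer 2 (DESeq2 adjusted p = 0.837).

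The Sprouty genes, intracellular inhibitors that Fgf signalling switches on against itself, followed the ligands in the controls over a smaller range. Spry1 (ENSMUSG00000037211, chromosome 3, 37639947 to 37644598, plus strand) had 4517, 1637 and 1506 normalised counts in controls, against 3666, 2578 and 2975 in Rx-Dicer. Control 1 was the highest library and controls 2 and 3 the lowest. Its log2 fold change was 0.27 ± 0.54 (SE, 95% interval -0.78 to 1.32, DESeq2 adjusted p = 0.937). Without control 1 it was 0.97 and called (DESeq2 adjusted p = 2.04e-05), and without control 3 it was -0.0006.

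Spry2 (ENSMUSG00000022114, chromosome 14, 105891947 to 105896819, minus strand) had 1822, 886 and 1079 normalised counts in controls, compared with 1786, 1512 and 1571 in Rx-Dicer. Controls 2 and 3 were below all Rx-Dicer libraries and control 1 above them. The log2 fold change was 0.36 ± 0.23 (SE, 95% interval -0.08 to 0.81, DESeq2 adjusted p = 0.550), and without control 1 it was 0.72 (DESeq2 adjusted p = 6.06e-04).

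Spry4 (ENSMUSG00000024427, chromosome 18, 38586247 to 38601415, minus strand) had 409, 238 and 307 normalised counts in controls, against 631, 502 and 356 in Rx-Dicer. Control 1 was above Rx-Dicer 3, and the other controls were below every Rx-Dicer library. Of the Sproutys it had the interval that lay above 0, with a log2 fold change of 0.64 ± 0.25 (SE, 95% interval 0.15 to 1.14) and an unadjusted DESeq2 p of 0.0102. After adjustment over all genes the DESeq2 p was 0.163, and 0.0584 without control 1, so Spry4 was called in neither fit.

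Dusp6 (ENSMUSG00000019960, chromosome 10, 99263231 to 99267489, plus strand), the phosphatase that inactivates ERK in the cytoplasm, had 5685, 3372 and 3402 normalised counts in controls, compared with 5276, 4525 and 4556 in Rx-Dicer. As for Spry1 and Spry2, control 1 was the highest library and controls 2 and 3 the lowest. Its log2 fold change was 0.21 ± 0.20 (SE, 95% interval -0.18 to 0.59, DESeq2 adjusted p = 0.788). Without control 1 it was 0.50 (DESeq2 adjusted p = 0.00499).

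The ETS factors Etv4 and Etv5 had lower values in Rx-Dicer, opposite in sign to the other feedback genes. Etv4 (ENSMUSG00000017724, chromosome 11, 101769742 to 101785371, minus strand) had 1416, 1087 and 1089 normalised counts in controls, against 1075, 833 and 726 in Rx-Dicer. All Rx-Dicer libraries lay below all controls, by a small margin between control 2 and Rx-Dicer 1. The log2 fold change was -0.45 ± 0.18 (SE, 95% interval -0.80 to -0.09) with an unadjusted DESeq2 p of 0.0152 and an adjusted one of 0.203. Without Rx-Dicer 1 it was -0.62 and called (DESeq2 adjusted p = 0.0230).

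Etv5 (ENSMUSG00000013089, chromosome 16, 22381309 to 22439719, minus strand) had 6458, 4822 and 4215 normalised counts in controls, compared with 4282, 3349 and 3294 in Rx-Dicer. Control 1 was again the highest library, but here controls 2 and 3 stood above Rx-Dicer 3 and the library labelled Rx-Dicer 2, and the genotypes met only where Rx-Dicer 1 passed control 3. The log2 fold change was -0.50 ± 0.18 (SE, 95% interval -0.85 to -0.16), with an unadjusted DESeq2 p of 0.00444 and an adjusted one of 0.101. Etv5 was called without Rx-Dicer 1 (-0.64, DESeq2 adjusted p = 0.0337) and without control 3 (-0.63, DESeq2 adjusted p = 0.0439), and had -0.31 with an adjusted p of 0.389 without control 1.

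Over the 10 genes, 0 were called by DESeq2, against 2.93% of the 17127 genes tested across the genome (1.75% higher and 1.18% lower in Rx-Dicer). A gene counted as called when its adjusted p was under 0.05 and one genotype exceeded the other by over 25%. Fgf8 and Fgf17 had no p-value, so 8 of the 10 were tested. At an unadjusted p under 0.05 there were 3, Spry4, Etv4 and Etv5, where 7.52% of the 30918 genes with a DESeq2 p reached that level. Those 30918 include genes of low count that independent filtering kept out of the 17127 tested. The share over the 17127 may therefore be higher. edgeR's quasi-likelihood test called 0 of the 10, against 0.0446% of genes tested, and had the same 3 at an unadjusted p under 0.05, where 12.9% of genes reached it. The genotypes did not overlap in 1 of the 10, Etv4, lower in Rx-Dicer, as in 10.7% of all genes tested (8.55% did not overlap with Rx-Dicer higher).

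The count of calls turned on single libraries. Without control 1, DESeq2 called 6 of the 10 higher (Fgf8, Fgf17, Fgf18, Spry1, Spry2 and Dusp6) and 0 lower, where 2.49% of all genes were called higher and 1% lower. Without Rx-Dicer 1 it called Etv4 and Etv5 lower, where 2.48% of genes were, and without control 3 it called Etv5 lower, where 0.55% were. Control 1 was the highest control for each of the 6 called without it. Rx-Dicer 1 was the highest Rx-Dicer library for Etv4 and Etv5, and control 3 the lowest control for Etv5. Leaving out such a library widens the difference by construction. These calls and their p-values, also where given above, are therefore no support for a difference. In 7 of the 10, all but Fgf15, Etv4 and Etv5, controls 2 and 3 were the lowest pair of libraries, as in 9.77% of all genes tested. This pair was picked from the values of these same genes, so its count among them is no separate result.

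**Figure D1:**
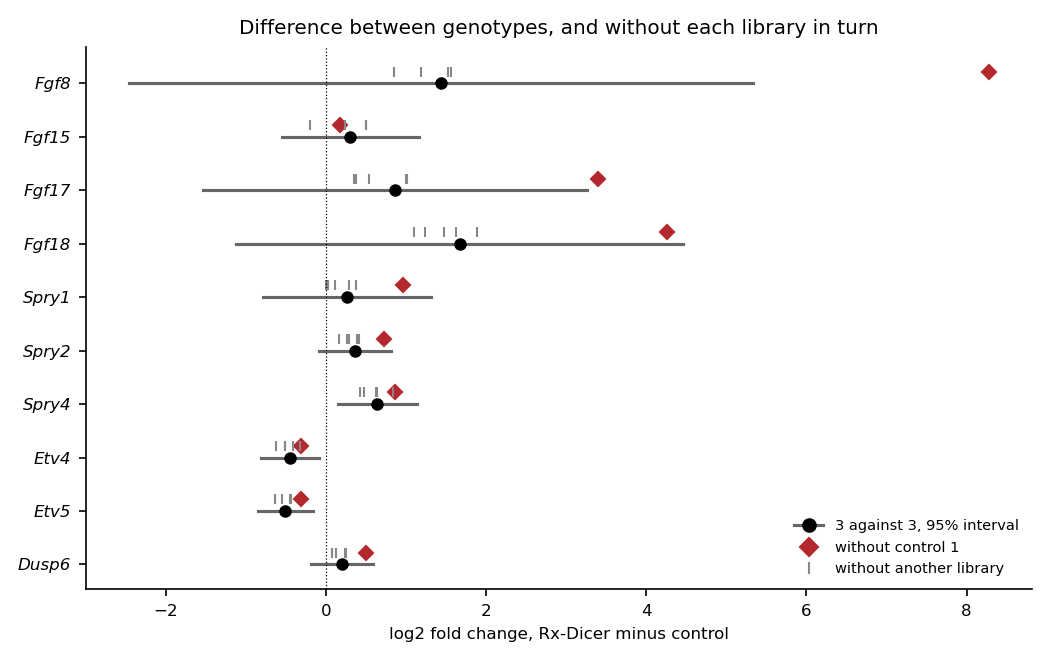
Log2 fold change of each gene, Rx-Dicer minus control, with the DESeq2 95% interval (black point and grey line), and the value without control 1 (red diamond) or without another library (grey ticks). Fgf8 moves from 1.43 to 8.28 and Fgf17 from 0.87 to 3.40 without control 1, while Etv4 and Etv5 lie below 0 in each of these fits.

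The levels of the genes can be compared per length, as CPM per kilobase of merged exon. By the median of 6 libraries the order on this scale was Fgf17, Dusp6, Etv5, Spry1, Spry2, Fgf15, Fgf8, Etv4, Fgf18 and Spry4. Per length of the longest transcript, Dusp6 (median 38.6) stood above Fgf17 (36.3) and Fgf15 (20.1) above Spry2 (17.5). By merged exons in Rx-Dicer, Fgf17 was at 45.9 ± 16.6 (SD, n = 3), Dusp6 at 36.5 ± 3.71, Spry1 at 25.2 ± 4.57 and Etv5 at 21.2 ± 3.51. Fgf8 itself was at 13.4 ± 3.73 (SD, n = 3), Fgf15 at 16.8 ± 8.99 and Etv4 at 6.77 ± 1.5. Fgf18 and Spry4 were lowest, at 4.73 ± 1.35 and 2.5 ± 0.74. Neighbours in this order overlapped in their range over the libraries, and the order was not tested.

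In controls Fgf8, Fgf17 and Fgf18 spread more widely than in Rx-Dicer. Dusp6 was at 31.3 ± 10.2 (SD, n = 3) and Etv5 at 29.7 ± 6.81, while Fgf17 ranged from 3.49 to 66.4. Fgf8 ranged from 0.0332 to 14.7 and Fgf18 from 0.0396 to 3.96 on this scale, each with its highest value in control 1. The feedback genes varied less, with Spry1 from 12.4 to 36.9 and Spry2 from 9.79 to 20.7, and Etv4 from 8.08 to 10.8.

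**Figure D2:**
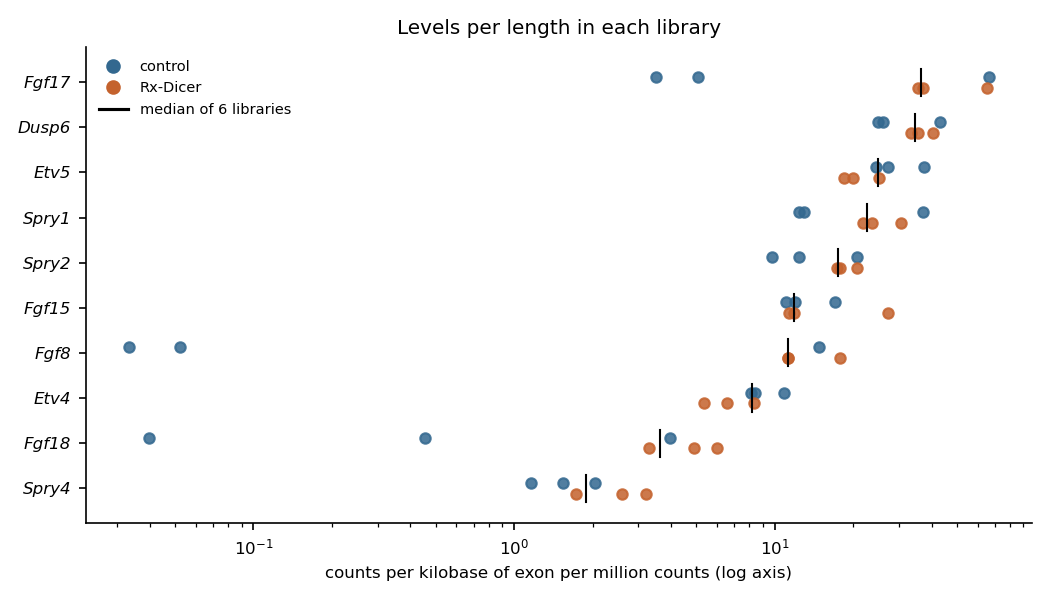
Levels of the 10 genes per length in each library on a log axis, ordered by the median of 6 libraries (black line), with controls in blue and Rx-Dicer in orange. Controls 2 and 3 trail far to the left for Fgf8, Fgf17 and Fgf18, and Fgf17 has the highest median on this scale, per merged exon length, though not per length of the longest transcript.

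The genes whose pattern was most like that of Fgf8 over the 6 libraries, by Pearson's r of log2 values among 12895 genes with a mean of at least 100 normalised counts, were Zfp423 (r = 0.994), Ccno (0.993), Bmp5 (0.990), Bmp6 (0.990) and Cep112 (0.989). Fgf17 was in place 10. The libraries form 2 clumps in Fgf8, so r says mainly that controls 2 and 3 were low for these genes too. Bmp6, a secreted Bmp ligand, had 446, 21.4 and 26.3 normalised counts in controls, against 392, 292 and 247 in Rx-Dicer. Bmp5, a ligand of the same family, had 374, 85.6 and 73.3 against 440, 348 and 282. Ccno, which acts in the amplification of centrioles in multiciliated cells, had 473, 76.4 and 50.7 against 575, 438 and 382. Zfp423 and Cep112 were also lowest in controls 2 and 3, but over a narrow range. Zfp423 had 5250, 4461 and 4401 normalised counts in controls, against 5437, 5337 and 5263 in Rx-Dicer, so that its genotypes did not overlap. Cep112 had 804, 506 and 529 against 764, 757 and 745, with control 1 the highest. DESeq2 and edgeR called 0 of the 5 between genotypes, and 0 had an unadjusted p under 0.05 by either. Without control 1, DESeq2 called 4 of the 5 higher, all but Zfp423, where 2.49% of all genes were called higher. The 5 were picked for likeness to Fgf8, so neither count is a separate result.

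**Figure D3:**
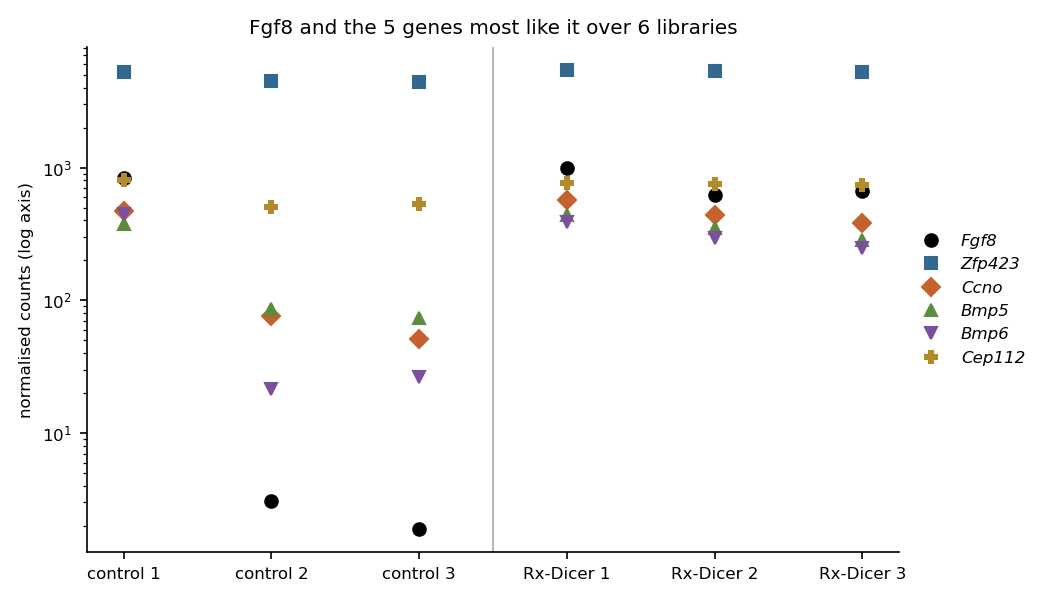
Normalised counts of Fgf8 and of the 5 genes with the highest Pearson's r to it, by library, on a log axis. Each gene is lowest in controls 2 and 3, where Bmp6 falls to 21.4 and 26.3 while the lowest value of Zfp423 is 4401.

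Of the receptors Fgfr1, Fgfr2 and Fgfr3, which take up these ligands, Fgfr1 varied least between libraries, Fgfr2 more and Fgfr3 most. Fgfr1, the main receptor of the early telencephalon, had 7682, 7978 and 9440 normalised counts in controls, compared with 7791, 8534 and 7253 in Rx-Dicer, a log2 fold change of -0.09 (95% interval -0.34 to 0.16, DESeq2 adjusted p = 0.892). Fgfr2 had 1326, 1918 and 2209 against 1664, 2287 and 1541 (0.01, -0.39 to 0.41, DESeq2 adjusted p = 0.995). Fgfr3 spread most within the controls, at 219, 2504 and 596 against 902, 1265 and 664. It was lowest in control 1 and highest in control 2. Its log2 fold change was -0.23 (-2.10 to 1.64, DESeq2 adjusted p = 0.98), and without control 2 it was 1.21 (DESeq2 adjusted p = 0.514).

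Among the 10 receptors and co-receptors DESeq2 tested 7 and called 0, with a median log2 fold change of 0.04 against -0.00090 over all 17127 genes tested. Of the 14 other secreted ligands, 12 had a count, 4 were tested and 0 were called (median -0.05). All 25 genes of the cascade from receptor adaptors to ERK were tested and 0 were called, with a median of 0.06 and values from -0.33 (Hras) to 0.27 (Sos2). Of the 8 immediate early genes, a rapid readout of ERK and stress, 0 were called (median 0.0038), and without control 2 Fosb was called lower. Unadjusted DESeq2 p-values under 0.05 were found for 0, 1, 3 and 1 genes of these lists in turn, beside 7.52% of all genes with a DESeq2 p. edgeR called 0 in each, with 0, 0, 6 and 0 at an unadjusted p under 0.05, beside 12.9% of genes. DESeq2 called 2.93% of all genes tested, so 0 calls in lists of this size do not show that the pathway was unchanged.

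Of the 15 other feedback and ERK target genes DESeq2 called 1 higher and 1 lower (median 0.26, higher and lower calls 1.75% and 1.18% of all genes). Dusp5, a nuclear ERK phosphatase, rose in Rx-Dicer, with 275, 213 and 181 normalised counts in controls, against 392, 347 and 378 in Rx-Dicer. Every Rx-Dicer library was above every control, as in 8.55% of all genes tested. The log2 fold change was 0.75 ± 0.20 (SE, DESeq2 adjusted p = 0.0164). The call was lost, at 0.615 to 0.734, without control 2 (adjusted p = 0.129), control 3 (0.105), Rx-Dicer 1 (0.0718) or Rx-Dicer 3 (0.0815), and with edgeR (adjusted p = 0.20). Dusp5 was also not called with the first files alone (0.67, DESeq2 adjusted p = 0.0721) or with the replicate number as a block (0.76, DESeq2 adjusted p = 0.0560).

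Etv1, the third factor of the subfamily of Etv4 and Etv5, fell in Rx-Dicer. It had 4966, 2174 and 2362 normalised counts in controls, compared with 1685, 1601 and 1479 in Rx-Dicer, all below the controls. Its log2 fold change was -0.995 ± 0.25 (SE, DESeq2 adjusted p = 0.00794), and without control 1 it was -0.52 and still called (DESeq2 adjusted p = 0.00348). The call was lost without Rx-Dicer 1 (-1.04, adjusted p = 0.262), the library labelled Rx-Dicer 2 (-0.997, 0.374) or Rx-Dicer 3 (-0.95, 0.371), with the second files alone (-0.98, 0.212), and with edgeR (adjusted p = 0.237). Chosen after their values were seen, the feedback inhibitor Il17rd and Cnpy1, which promotes Fgf signalling at the midbrain-hindbrain border, also had controls 2 and 3 as their lowest libraries. Il17rd had 6598, 4414 and 3988 against 8772, 6779 and 5940 (0.52, DESeq2 adjusted p = 0.161). Cnpy1 had 293, 41.8 and 52.6 against 226, 236 and 144 (0.65, DESeq2 adjusted p = 0.881). Both were called higher without control 1, the highest control for each, at 0.77 and 2.09. Spry3, Spred1, Dusp5 and Phlda1 of the list also had those controls lowest, as did 9.77% of all genes tested. Spred3 (-0.42, DESeq2 adjusted p = 0.20) and Dusp7 (-0.26, DESeq2 adjusted p = 0.39) went the other way. In both, every Rx-Dicer library was below every control, as in 10.7% of all genes tested.

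Of the 10 rostral patterning factors, 9 were tested and 1 was called in each direction (median 0.10, higher and lower calls 1.75% and 1.18% of all genes). Six3, a homeobox gene of the anterior forebrain, rose in Rx-Dicer from 1357, 684 and 1048 to 2177, 3018 and 2247 normalised counts, with every Rx-Dicer library above every control (log2 fold change 1.27 ± 0.22 SE, DESeq2 adjusted p = 6.27e-06). It kept its call without each library in turn, and edgeR gave an adjusted p of 0.133. The hypothalamus markers Otp and Bsx were also called higher in Rx-Dicer, and the part of hypothalamic RNA in the Six3 values was not tested. Pax6, a factor of pallial progenitors, fell from 7210, 6927 and 6726 to 5064, 4749 and 5629 (-0.43 ± 0.12 SE, DESeq2 adjusted p = 0.0127), also without overlap. Over all genes tested, 8.55% did not overlap with Rx-Dicer higher and 10.7% with Rx-Dicer lower. Pax6 lost its call without control 2 (-0.44, DESeq2 adjusted p = 0.0553), with the replicate block (-0.44, DESeq2 adjusted p = 0.0598) and with edgeR (adjusted p = 0.144). Sp8, chosen after its values were seen, a zinc finger factor that works in a loop with Fgf8, had 5385, 3738 and 2836 in controls, against 5163, 4284 and 5606 in Rx-Dicer (0.33, DESeq2 adjusted p = 0.549). It was called without control 1, its highest control (0.61, DESeq2 adjusted p = 0.0323).

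**Figure D4:**
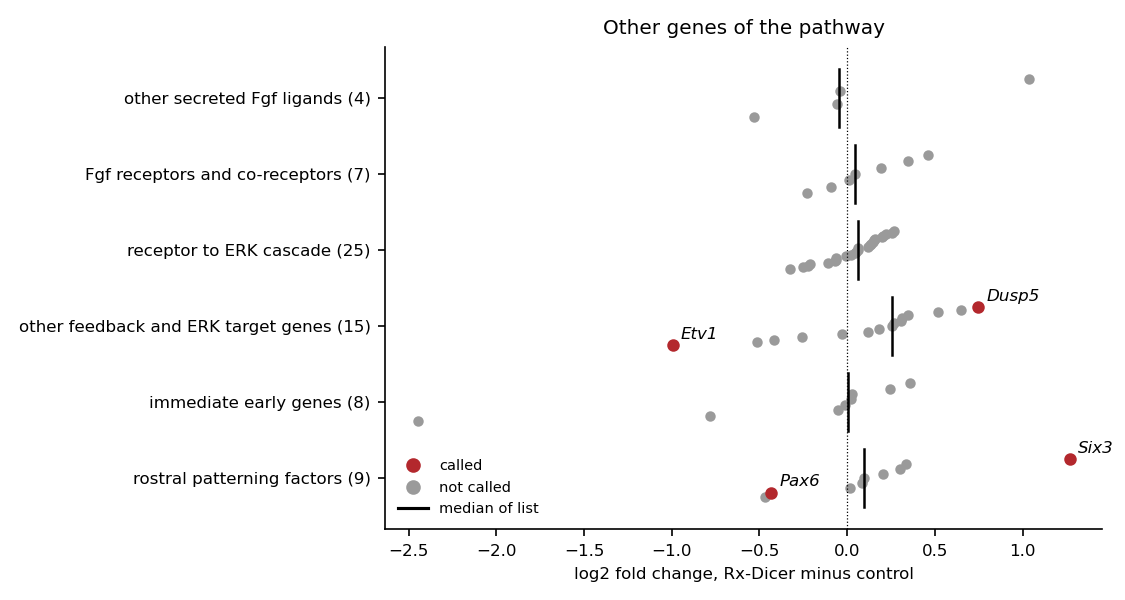
Log2 fold change, Rx-Dicer minus control, of the tested genes of each list, with the number tested in brackets, calls in red and the list's median as a black line. The 25 genes of the cascade to ERK lie between -0.33 and 0.27, and Dusp5, Etv1, Six3 and Pax6 are the calls.

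Dicer cuts the precursors of miRNAs, so the 3′ UTRs of the 10 genes were searched for sites of let-7, the family on which the study centres, and of miR-9-5p, abundant in the embryonic brain. The mature RNAs from RefSeq are shown with the seed, bases 2 to 8, in capitals, since the let-7 members share it.
let-7a-5p: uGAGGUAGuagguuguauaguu
let-7g-5p: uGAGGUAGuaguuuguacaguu
let-7i-5p: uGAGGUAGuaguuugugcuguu
miR-9-5p: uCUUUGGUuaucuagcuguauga
The longest annotated 3′ UTR of each gene was read in the sense direction only. The 8-base let-7 site CTACCTCA was found in 0 of the 10 genes, beside 3.79% of 14053 tested protein-coding genes, and the 7-base site CTACCTC, which the longer one contains, in 0 beside 10.8%. The 8-base miR-9-5p site ACCAAAGA was found in 0 of the 10, beside 4.74%, and the 7-base site ACCAAAG in 1, Fgf18, beside 14.3%. The UTRs searched ran from 192 bases in Fgf8 to 3559 in Spry4, and shorter UTRs hold fewer words of any kind. The match in Fgf18 covers chr11:33117475-33117481 (GRCm38, minus strand) and starts at base 284 of its 335 base 3′ UTR, shown here with the match in capitals.
Fgf18: tgcgagaaACCAAAGtccttt
A match of letters is a description of the annotation and not a measured site.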

How the data were processed

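The files, as deposited, held raw counts of reads for each gene. Per the study's methods and the submitters' processing notes, the authors trimmed reads with Trim Galore 0.6.5, aligned them to GRCm38.p6 with HISAT2 and counted them per Ensembl gene with HTSeq 0.12.4 in union mode on the reverse strand, so reads over several genes were dropped. There were 12 files, 2 for each of 6 samples. Counts gave a chi-square per degree of freedom of 1.13 to 1.52 between files of a sample and 22.5 to 32.6 between samples of a group, and the files were summed, so n was 3 per genotype. Rows that name no gene held 24.9 to 31.0% of the file totals and were left out. A floor of 3 counts was 0.0620 to 0.0870 CPM. Intervals on counts cover counting error only.

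Genotypes were compared over all genes with DESeq2 1.42.0 (R 4.3.3; Wald test, size factors, unshrunken log2 fold change, Benjamini-Hochberg adjustment with independent filtering). The 95% intervals are the fold change ± 1.96 SE. The first alternative, edgeR 4.0.16, used TMM factors and genes that reached 10 counts in 3 samples. Gene lengths, positions and UTRs came from GENCODE annotation of GRCm38, which held 55230 of the 55471 identifiers. The tests were tested on simulated counts. The members and lists were chosen with earlier results of these data known. Named genes were the 10 members, Dicer1, Fgfr1 to Fgfr3, at most 4 called genes per pathway list, and the 5 genes with the highest Pearson's r to Fgf8 (log2 of normalised counts plus 1). Markers were named for tissue only. Other genes named (Il17rd, Cnpy1, Spry3, Spred1, Phlda1, Spred3, Dusp7, Sp8, Fosb, Fos, Fgf3, Wnt1 and Dusp4) were chosen after their values were seen. Hras and Sos2 are the ends of a range. For 1 listed gene no values are given, though list counts and sums include it. The study's small RNA libraries are not used here.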

Additional observations from a re-analysis of the deposited data

How the results depend on the processing

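Against 0 calls among the 10 genes in each direction, the fits that left out a library gave 0 to 6 higher and 0 to 2 lower, and all other alternatives but the replicate block gave 0. Among genes named, the fold change of Fgf15 was reversed without the library labelled Rx-Dicer 2 (range over the 6 fits -0.194 to 0.506), Spry1 without control 3 (-0.0006 to 0.967), Fgfr1 without control 3 (-0.150 to 0.00594), Fgfr2 with the first files alone (-0.0236) and without control 1 or the library labelled Rx-Dicer 2 (-0.178 to 0.174), and Fgfr3 without control 2 (-0.717 to 1.21). Deviations from group means of same-numbered samples correlated at 0.269, -0.0649 and -0.285. With 3 samples a genotype these values cannot exclude that replicate numbers pair the samples, and the study names its controls as littermates of the mutants. With the replicate block 1 of the 10 was called higher (Fgf8, 6.37, DESeq2 adjusted p = 0.0158, beside 1.32% of all genes) and 1 lower (Etv5, -0.49, 0.0167, beside 0.508%), 0 patterning factors were called lower (Pax6 lost its call), Il17rd was the feedback gene called higher in place of Dusp5, and Fgfr3 was reversed (0.38). For Fgf8 the block sets control 1 (838 normalised counts) against Rx-Dicer 1 (993). The value of 6.37 thus rests largely on the raw totals of 3 and 2 counts in controls 2 and 3.

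Of the feedback and ERK target list 0 were called higher and 0 lower with edgeR, 0 higher with the first files alone and 0 lower with the second alone. Leaving out a library gave 0 to 3 higher and 0 to 1 lower there, 1 to 2 higher and 0 to 1 lower for patterning factors, and 0 to 1 lower for immediate early genes (Fosb, without control 2). Of the patterning factors edgeR called 0 higher and 0 lower. The 7-base miR-9-5p site was in 1 gene against 0 for the 8-base site. Per length of the longest transcript, Fgf15 was at 22.5 in controls and 28.4 in Rx-Dicer (13.3 and 16.8 by merged exons), Etv4 at 11.8 and 8.77 (9.09 and 6.77) and Dusp6 in Rx-Dicer at 40.9 (36.5), since the annotated lengths differ. Other causes were not tested. The fit without Cook's rule was added after the data were seen. With 3 samples a genotype, the intervals of Fgf8, Fgf17 and Fgf18 allow large differences in either direction.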

Other observations

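Some values of the pathway belong to no comparison above, and were chosen after they were seen. Fosb, an immediate early gene, had 20.8, 2.04 and 47.9 normalised counts in controls, against 5.15, 3.06 and 4.75 in Rx-Dicer (log2 fold change -2.45, DESeq2 adjusted p = 0.169), and Fos had 48.9, 11.2 and 149 against 47.2, 21.4 and 53.2. Both were highest in control 3 and lowest in control 2, so the spread within controls was larger than the difference between genotypes. Fgf3, another secreted ligand, had 20.8, 60.1 and 85.5 against 59.2, 184 and 99.8 (1.04, DESeq2 adjusted p = 0.323). Wnt1, a ligand of the midbrain-hindbrain border and dorsal midline, had 2.44, 0 and 0 in controls, against 120, 1.02 and 102 in Rx-Dicer (DESeq2 adjusted p = 0.0841), and was low in the library labelled Rx-Dicer 2 where Fgf8 was not. Dusp4, a nuclear phosphatase of ERK, had 5798, 4778 and 3412 against 5365, 2053 and 2359, opposite in sign to Dusp5 and overlapping between genotypes (-0.52, DESeq2 adjusted p = 0.770). Without Rx-Dicer 1, its highest Rx-Dicer library, Dusp4 was called lower (-1.08, DESeq2 adjusted p = 3.18e-04).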
